A study of Mus musculus with 2 samples.

Results

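The 10 genes described here encode antioxidant enzymes: the superoxide dismutases Sod1 and Sod2, catalase (Cat), the glutathione peroxidases Gpx1 and Gpx4, the peroxiredoxins Prdx1, Prdx2 and Prdx3, thioredoxin (Txn1) and thioredoxin reductase (Txnrd1). They were taken by symbol, whatever their level, and all 10 were found among the 21474 protein-coding genes of 43346 Ensembl gene rows. Total RNA was sequenced from sorted megakaryocyte-erythroid progenitors (MEP), primary bone marrow cells of male C57BL/6J mice of 5 to 6 weeks, with no treatment or allele named. The series holds 1 group of 2 libraries, labelled biological replicates 1 and 2 with 1 technical replicate each, each made with the ScriptSeq kit from 100 ng of RNA after removal of ribosomal RNA. Their labelled size ranges are 200 to 1000 for replicate 1 and 215 to 1000 for replicate 2. The libraries have separate biosample entries but 1 donor entry, and the labels do not say whether different mice gave the cells, so how much of the spread between the libraries is biological is not known. Conditions cannot be compared with a single group, and no p-value was computed.

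Superoxide, a by-product of respiration, is turned into hydrogen peroxide by superoxide dismutases. The peroxide is then removed by catalase, by glutathione peroxidases, which draw on glutathione, and by peroxiredoxins, which are recharged by thioredoxin and thioredoxin reductase with electrons from NADPH. Red blood cells carry large amounts of several of these proteins, because their hemoglobin binds oxygen and gives rise to superoxide, and MEP are precursors of that lineage. Gpx1, Gpx4 and Txnrd1 are selenoproteins: a UGA codon inside their coding sequence, elsewhere a stop signal, is read as selenocysteine, the residue at the active site.

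The codons that make these 3 members selenoproteins are shown because the levels of the other selenoprotein genes are compared with theirs below. Each line is coding sequence of GENCODE M21, 5′ to 3′ on the plus strand of mm10, with the in-frame TGA (UGA in the RNA) in capitals.
Gpx1-201: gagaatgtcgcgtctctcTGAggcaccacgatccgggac
Gpx4-202: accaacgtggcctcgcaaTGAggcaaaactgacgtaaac
Txnrd1-201: atcctccagtctggctgcTGAggttaa
In Gpx1 the codon lies on chromosome 9 from 108339451 to 108339453, in exon 1 of 2, and is codon 47 of 201. In Gpx4 it lies on chromosome 10 from 80054737 to 80054739, in exon 3 of 7, and is codon 73 of 197. In Txnrd1 it lies on chromosome 10 from 82896037 to 82896039, in exon 14 of 14, as codon 498 of 499, so that 1 codon and the stop follow it.

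All 10 genes were expressed, over a range of levels of more than 20-fold, with Sod1 at the top and Cat at the bottom in both libraries. Levels are given as TPM, each transcript's length-corrected share of all transcripts in a library, so genes can be compared with each other. A gene counts as detected here at 1 TPM or more in each library, which 10 of 10 members met, against 39.4% of all protein-coding genes (8465 genes). The members' median TPM was 68.0 in replicate 1 and 54.9 in replicate 2. The same median over the 8465 detected genes was 8.89 and 7.22. Of the 10 members, 7 lay above the 90th percentile of the detected genes in both libraries. In bulk RNA, fewer cells expressing a gene and less RNA per cell cannot be told apart.

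**Figure D1:**
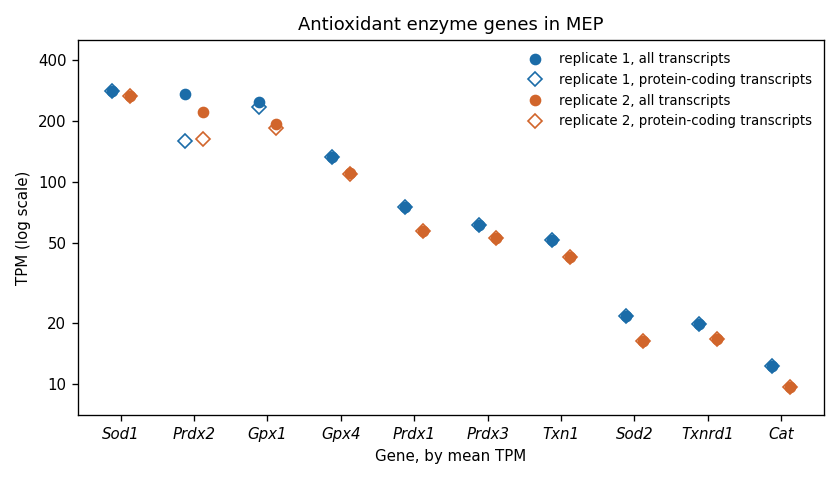
TPM of the 10 antioxidant enzyme genes on a log axis, ordered by mean TPM, in replicate 1 (blue) and replicate 2 (orange). Filled circles sum all transcripts of a gene, open diamonds only its protein-coding transcripts, and vertical lines, mostly hidden by the symbols, are the authors' TPM intervals. Circle and diamond part clearly only for Prdx2, at 271 against 159 in replicate 1 and 221 against 163 in replicate 2.

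Sod1 encodes the copper and zinc superoxide dismutase of the cytosol, and Sod2 the manganese enzyme of mitochondria. Sod1 (ENSMUSG00000022982.9, mm10 chromosome 16, 90220754 to 90226329) stood at 280 TPM in replicate 1 and at 266 in replicate 2, a mean of 273 ± 10.2 (SD, n = 2). It ranked 146th and 130th among the detected protein-coding genes. Sod2 (ENSMUSG00000006818.4, chromosome 17, 13006846 to 13040063) was much lower, at 21.6 and 16.3, a mean of 18.95 ± 3.75 (SD, n = 2). Sod1 exceeded Sod2 by 3.86 ± 0.23 on the log2 TPM scale (SD, n = 2), which is 13.0-fold in replicate 1 and 16.3-fold in replicate 2. The chaperone gene Ccs, whose product loads copper into SOD1, stood at 9.40 and 8.36, and Sod1 exceeded it 29.8-fold and 31.8-fold. The extracellular enzyme gene Sod3 had 0 counts in both libraries.

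Cat (ENSMUSG00000027187.6, chromosome 2, 103453849 to 103485160), whose product breaks down hydrogen peroxide without a reducing partner, had the lowest level of the 10. It stood at 12.3 TPM in replicate 1 and 9.68 in replicate 2, a mean of 11.0 ± 1.84 (SD, n = 2), from 2680 and 3108 expected counts. That placed it at percentiles 60.6 and 59.7 of the detected genes. Gpx1 exceeded Cat 20.2-fold and 19.8-fold, a log2 ratio of 4.32 ± 0.02 (SD, n = 2).

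Gpx1, the general glutathione peroxidase, and Gpx4, which reduces lipid peroxides in membranes, were the only genes of their family to reach 1 TPM in either library. Gpx1 (ENSMUSG00000063856.7, chromosome 9, 108338903 to 108340343) was at 248 and 192, a mean of 220 ± 39.4 (SD, n = 2). Gpx4 (ENSMUSG00000075706.6, chromosome 10, 80047166 to 80056439) was at 132 and 109.85, a mean of 121 ± 15.5 (SD, n = 2). The 2 genes did not overlap, and Gpx1 exceeded Gpx4 by 1.88-fold in replicate 1 and 1.75-fold in replicate 2. Of the other 6 glutathione peroxidase genes 0 were detected. Gpx7 had 16 and 29 counts, and Gpx2, Gpx3, Gpx5, Gpx6 and Gpx8 had 0 counts in both libraries.

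Prdx2, the peroxiredoxin known for its abundance in red cells, led the 3 peroxiredoxin members, ahead of Prdx1, another cytosolic enzyme, and Prdx3, its mitochondrial relative. Prdx2 (ENSMUSG00000005161.11, chromosome 8, 84969587 to 84974834) was at 271 and 221, a mean of 246 ± 35.4 (SD, n = 2). Prdx1 (ENSMUSG00000028691.8, chromosome 4, 116685544 to 116700822) was at 75.2 and 56.9, a mean of 66.1 ± 12.9 (SD, n = 2). Prdx3 (ENSMUSG00000024997.7, chromosome 19, 60864051 to 60874556) was at 60.8 and 52.8, a mean of 56.8 ± 5.64 (SD, n = 2). Prdx1 was above Prdx3 within each library, 1.24-fold in replicate 1 and 1.08-fold in replicate 2, although their ranges over the libraries overlapped. Prdx2 exceeded Prdx1 3.60-fold in replicate 1 and 3.87-fold in replicate 2, and Prdx3 4.45-fold and 4.18-fold. Over the protein-coding transcripts alone, described below, Prdx2 exceeded Prdx1 2.13-fold and 2.86-fold. Prdx2 made up 42.2% and 44.3% of the summed TPM of the 6 peroxiredoxin genes, and 40.0% and 45.5% over protein-coding transcripts.

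Txn1, the cytosolic thioredoxin, was higher than Txnrd1, the reductase that recharges it. Txn1 (ENSMUSG00000028367.5, chromosome 4, 57943373 to 57956411) was at 51.8 and 42.5, a mean of 47.1 ± 6.57 (SD, n = 2). Txnrd1 (ENSMUSG00000020250.9, chromosome 10, 82833951 to 82897712) was at 19.8 and 16.6, a mean of 18.2 ± 2.21 (SD, n = 2). The log2 ratio of Txn1 to Txnrd1 was 1.37 ± 0.03 (SD, n = 2), or 2.62-fold and 2.56-fold. Compared with the mitochondrial counterparts, the thioredoxin and the reductase ran in opposite directions. Txn1 exceeded Txn2 1.93-fold and 2.45-fold, whereas Txnrd1 lay below Txnrd2, which was 1.33-fold and 1.90-fold higher. Over protein-coding transcripts the excess of Txn1 over Txn2 was 2.90-fold and 2.45-fold, and that of Txnrd2 over Txnrd1 was 1.20-fold and 1.58-fold.

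Set in order of mean TPM, the ranges over the 2 libraries overlapped for Sod1 and Prdx2, for Prdx2 and Gpx1, for Prdx1 and Prdx3, and for Sod2 and Txnrd1. TPM of most genes was lower in replicate 2, a shift the members of a pair share, and of these 4 pairs only Sod2 and Txnrd1 changed places between the libraries. With TPM rescaled as described below, Sod1 ran from 1097 to 1292, Prdx2 from 1060 to 1073 and Gpx1 from 935 to 970.2, without overlap. Prdx1, from 277 to 294 over all its transcripts, and Prdx3, from 238 to 257, did not overlap either. Only Sod2, from 79.3 to 84.6, and Txnrd1, from 77.4 to 80.9, still overlapped. The authors' TPM intervals of Sod1, 271 to 282, and Prdx2, 262 to 273, overlapped in replicate 1, as did those of Sod2 and Txnrd1 in replicate 2. In each of the 10 ratios of related genes that were computed, the same gene was the higher in both libraries, and the authors' intervals of the pair lay apart in both.

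**Figure D2:**
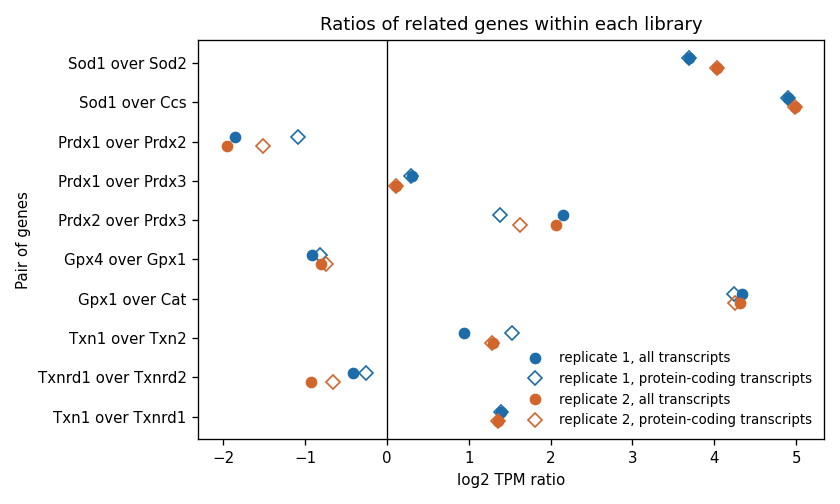
Log2 TPM ratios of 10 pairs of related genes within replicate 1 (blue) and replicate 2 (orange). Filled circles use all transcripts and open diamonds only protein-coding ones, and a point right of the line at 0 means that the first gene is higher. The ratio of Gpx1 over Cat is alike in both libraries at 4.33 and 4.31. The ratios with Prdx2, Txn2 or Txnrd2 depend most on which transcripts are summed.

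Part of the level of Prdx2 was assigned by the estimates to a transcript annotated as encoding no protein. Prdx2-205 (chromosome 8, 84971456 to 84974311), annotated as a retained intron, took 40.7% of the gene's TPM in replicate 1 and 23.8% in replicate 2. It is short, with an effective length of 326 bases in replicate 1 against 1277 for the main coding transcript Prdx2-201, so its 15.0% and 7.54% of the gene's counts weigh more in TPM. Of its 549 bases, 443 are exonic in Prdx2-201 too, and 106 lie in the intron after exon 4. Reads within the shared bases fit both transcripts, so the split between them is an estimate and the coding value may be too low. Without it and the other non-coding transcripts, Prdx2 stood at 159 TPM in replicate 1 and 163 in replicate 2, a mean of 161 ± 2.60 (SD, n = 2). On this measure, which depends on that split, Gpx1, at 233 and 184, was above Prdx2 in both libraries, the reverse of their order in total TPM.

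Both main transcripts of Gpx4 code for protein and differ at the 5′ end. Gpx4-202 took 57.9% of the gene's TPM in replicate 1 and 53.5% in replicate 2, and Gpx4-207 took 42.1% and 46.4%. Gpx4-201, which starts from another first exon (coding start at 80054049 on chromosome 10), had 0 counts in both libraries. Gpx4 protein is known in a mitochondrial form and a shorter cytosolic form that begin at different ATG codons of the same reading frame, and in a nuclear form from an alternative first exon. The stretch from the first ATG of Gpx4-202 to the ATG annotated as the start of Gpx4-207 is shown with its 3 in-frame ATG codons in capitals (chromosome 10, from 80053632 to 80054552, plus strand, intron removed).
Gpx4-202: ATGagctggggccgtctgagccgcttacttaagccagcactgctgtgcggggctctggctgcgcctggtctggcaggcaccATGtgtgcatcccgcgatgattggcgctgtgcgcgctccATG
The annotated coding sequence has 197 codons in Gpx4-202 and 157 in Gpx4-207, and 170 codons follow from the second ATG, at codon 28 of Gpx4-202. Gpx4-202 holds all 3, so its level does not divide the mitochondrial from the cytosolic form.

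The same transcript led in both libraries for all 10 members. Sod1, Sod2, Prdx3, Txn1 and Txnrd1 have 1 transcript in the tables and could not differ. Of Prdx1, the full transcript Prdx1-204 took 77.9% and 68.9% of TPM, and Prdx1-205, whose annotated coding sequence is cut short, 21.6% and 28.1%. By counts these shares were 94.97% and 92.0% for Prdx1-204. Gpx1-201 took 90.5% and 90.4%, and Gpx1-204 was at 0 in replicate 1 and 5.32% in replicate 2. Cat-201 took all of the TPM of Cat.

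**Figure D3:**
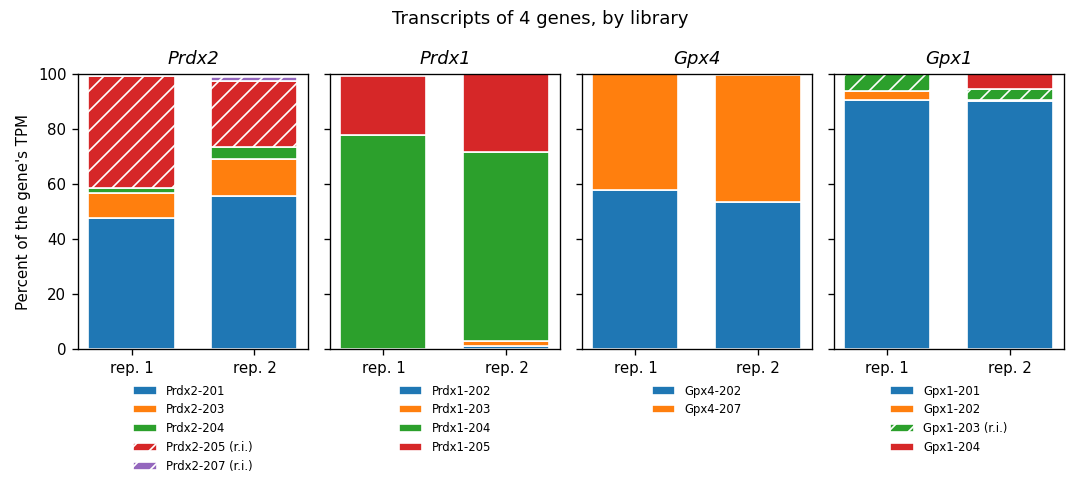
Percent of each gene's TPM (vertical axis, starting at 0) taken by each transcript of Prdx2, Prdx1, Gpx4 and Gpx1 in both libraries. Transcripts under 1% in both are not drawn, and hatched bars marked r.i. are annotated as retained introns. The hatched share of Prdx2-205 is 40.7% in replicate 1 and 23.8% in replicate 2.

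Between the libraries the 10 genes moved with the bulk of genes and by little beyond it. In TPM, 10 of 10 members were lower in replicate 2, but so were 73.0% of the 9046 protein-coding genes whose mean over the libraries was 1 TPM or more. Log2 ratios of replicate 2 over replicate 1 were computed after adding 1 TPM, which understates the change of low genes. Their median was -0.27 over all these genes and -0.29 over the members. Of the members, 0 of 10 differed by more than 2-fold, against 1.70% of all genes higher and 6.47% lower in replicate 2. Relative to the median gene, the members ran from -0.12 for Prdx1 to 0.20 for Sod1. The median absolute deviation from the median gene was 0.057 for the members, 0.29 for all genes and 0.24 for the 3630 genes whose mean was 10 TPM or more.

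Protein-coding nuclear genes held 25.5% of the TPM in replicate 1 and 20.6% in replicate 2, so TPM were also rescaled to an equal total over these genes, globins left out. On that scale the median gene shifted by -0.0041, and the members split, with 6 higher and 4 lower in replicate 2. Together the 10 members made up 0.459% of this total in replicate 1 and 0.478% in replicate 2. Sod1 was at 1097 and 1292, Prdx3 at 238 and 257, Gpx1 at 970.2 and 935, and Sod2 at 84.6 and 79.3. For these 4 genes the authors' TPM intervals, rescaled in the same way, lay apart between the libraries, higher in replicate 2 for Sod1 and Prdx3 and lower for Gpx1 and Sod2. That is 2 of 10 in each direction, against 35.0% of all genes higher and 35.9% lower. The intervals cover the estimation within a library and not the spread between animals. On the TPM scale as deposited, the interval of replicate 2 lay wholly lower for 10 of 10 members and for 61.0% of all genes.

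Prdx2 was the member whose difference depended most on what was summed. Relative to the median gene it differed by -0.02 in total TPM, by 0.24 in counts with TMM scaling and by 0.29 in the TPM of protein-coding transcripts. Genes of mature red cells differed too: the summed TPM of 8 such markers was 133 in replicate 1 and 228 in replicate 2, with 6 of 8 detected. The summed level of 6 megakaryocyte markers was 44.2 and 16.3 (2 of 6 detected), of 5 stem cell markers 77.3 and 20.1 (4 of 5), and of 8 granulocyte markers 64.7 and 132 (6 of 8). Single markers also went against their sums: in the granulocyte list S100a8 stood at 30.7 and 68.2 but Mpo at 8.53 and 1.64 and Elane at 0.39 and 0.05, in the stem cell list Mecom at 1.74 and 1.89, and in the megakaryocyte list Gp9 at 0.43 and 1.65. The 7 MEP markers, 7 of 7 detected, summed to 236 and 235. Of 6 macrophage markers 0 were detected (sums of 1.17 and 1.67), and Adgre1, C1qa and C1qb had 0 counts. The sums were 7.01 and 15.06 for 6 lymphoid markers (1 detected, Cd3e and Ms4a1 at 0) and 8.44 and 2.14 for 4 mast cell and basophil markers (1 detected, Mcpt8 at 0). The part of these other cells or stages in the levels of the members was not tested.

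**Figure D4:**
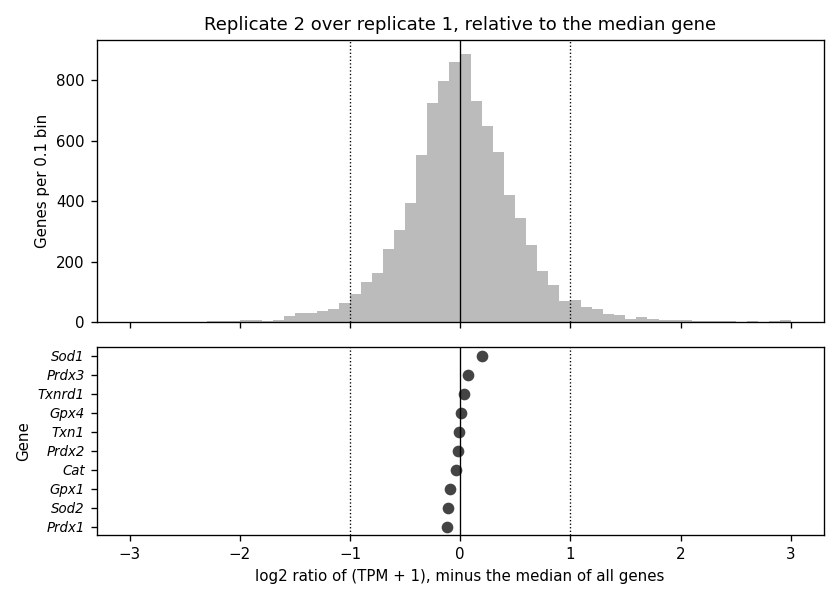
Log2 ratio of replicate 2 over replicate 1, on the TPM + 1 scale and relative to the median gene. The upper panel counts the 9046 protein-coding genes of mean 1 TPM or more in bins of 0.1, with values beyond 3 in the outermost bins, and the lower panel places the 10 members. Dotted lines mark 2-fold, and every member lies between -0.12 and 0.20.

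Reads of some members can be shared with other rows. At the 2 decimals of the tables, 7 members had whole-number counts in both libraries. Sod1, Prdx1 and Prdx2, the last at 21842.96 and 30275.99 counts, did not, which means that some of their reads were divided among rows. A search of pseudogene transcripts at 90% identity over 200 bases found 6 copies in the tables, 3 of Prdx1 and 1 each of Sod1, Prdx2 and Txn1. Counts on these copies came to at most 0.421% of those of the member. Sod1 overlaps the opposite-strand gene Scaf4, and Prdx2 overlaps Rnaseh2a and Junb, also on the opposite strand. Txnrd1 overlaps Eid3 on the same strand over 1305 bases, and Gm38560 and Gm47073 on the opposite strand over 13276 and 1393 bases. These 3 genes have no row of their own among the deposited values, so their levels are not known. The sources used here do not say whether the counting used strand, so exonic reads in these overlaps are uncertain. Not all overlapping bases are exonic. The 13276 bases shared with Gm38560 exceed the effective length of Txnrd1-201, the 1 Txnrd1 transcript with values, at 3194 bases in replicate 1.

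By median, the wider antioxidant network was lower than the members: 70 of 96 genes in 13 lists were detected. The median of their mean TPM was 6.64, against 61.4 for the members. The lists include 15 genes with 0 counts in both libraries, and the gap depends on which genes were listed. The ranges overlapped: in total TPM Prdx6, at a mean of 157, and Selenof, at 149, were above Gpx4 at 121. Over protein-coding transcripts alone, Prdx6, at 56.2 and 44.8, was below Gpx4, at 132 and 109.69. Of 72 network genes averaging 1 TPM or more, 1 was more than 2-fold higher in replicate 2 and 4 were lower, against 1.70% and 6.47% of all genes. With rescaled TPM 4 were higher and 2 lower, against 4.75% and 5.46%.

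Among the remaining peroxiredoxins, Prdx6, which also acts on phospholipids, was the highest, at 188 TPM in replicate 1 and 125 in replicate 2. Its protein-coding transcripts gave only 56.2 and 44.8. Prdx5 was at 27.2 and 26.5, and Prdx4, the enzyme of the endoplasmic reticulum, at 20.0 and 15.1. Of the thioredoxin system, all 6 further genes were detected. Txnl1, a thioredoxin-like protein of the proteasome, was at 65.3 and 60.7, Txnrd2 at 26.3 and 31.6, and Txn2 at 26.8 and 17.4. Txnip, whose product binds and inhibits thioredoxin, had 56.4 in replicate 1 and 24.5 in replicate 2. Its log2 ratio was -1.17 in TPM, past 2-fold, and -0.88 with rescaled TPM, which is not.

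Genes of glutathione synthesis and recycling, 5 of 8 detected, were led by the subunits of glutamate-cysteine ligase, the first enzyme of its synthesis. The regulatory subunit gene Gclm was at 29.3 and 31.8 and the catalytic subunit gene Gclc at 18.9 and 18.5. Gsr, which recycles oxidised glutathione, followed at 16.6 and 13.7, and Chac2 at 11.4 and 12.5. Slc7a11, the cystine importer, stood at 0.09 and 0.02, and Ggt1 and Chac1 had 0 counts in both. All 4 glutaredoxin genes were detected. Glrx3 and Glrx5, both of which act with iron-sulfur clusters, reached 56.0 and 42.4, and 41.4 and 52.0, while Glrx2 was at 14.5 and 11.0. Of 12 glutathione S-transferases 7 were detected, and Gstm5 led at 61.7 and 51.8, followed by Gsto1 at 35.4 and 22.7 and Gstp1 at 22.1 and 27.9. Members of that list differed in both directions with rescaled TPM, Mgst3 and Gstt2 higher and Gstm1 lower in replicate 2.

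Of 6 genes of NADPH supply 5 were detected. Idh2 of mitochondria was at 35.3 and 25.1, and G6pdx, the first enzyme of the pentose phosphate pathway, at 12.7 and 16.6. Idh1, the cytosolic relative of Idh2, was at 5.85 and 1.13, lower in replicate 2 by more than 2-fold in TPM (-1.69) and in rescaled TPM (-1.88). Me1 had 0 counts. Of the 9 peroxisome genes, the organelle in which catalase works, all were detected, with Pex19 highest at 12.05 and 10.4. Pex7, at 10.3 and 4.12, was past 2-fold lower in TPM (-1.14) but not in rescaled TPM (-0.98).

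**Figure D5:**
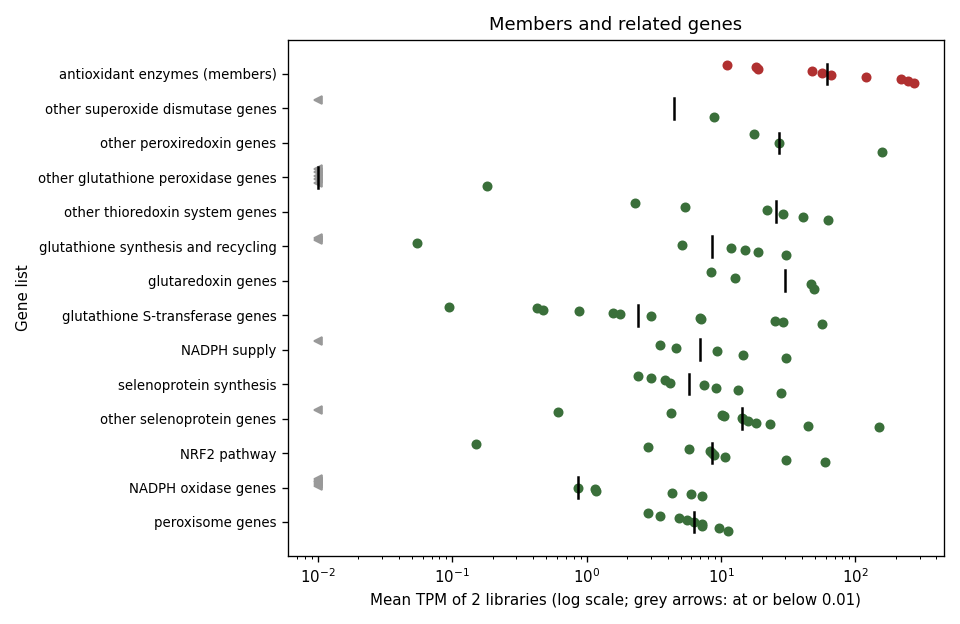
Mean TPM of the 10 members (red) and of 96 related genes in 13 lists (green) on a log axis, 1 point per gene, with a black bar at each list's median. Grey arrows at the left edge are genes at or below a mean TPM of 0.01. The members' median of 61.4 lies to the right of the median of each list, and Prdx6 and Selenof are the related genes furthest to the right.

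Genes whose products make selenoproteins were all detected, 8 of 8, led by Sephs2, which makes the selenium donor, at 28.4 and 27.9, and Trnau1ap, a partner of the selenocysteine tRNA, at 15.5 and 11.2. Pstk, a kinase acting on that tRNA while it carries serine, stood at 2.34 and 6.06 (log2 ratio 1.08 in TPM and 1.58 rescaled). In TPM it was the 1 gene of the network past 2-fold higher in replicate 2, and with rescaled TPM it was 1 of 4. In all, 24 protein-coding genes have a selenocysteine codon in the annotation, of which 16 were detected. By TPM, Gpx1 ranked 1 and Gpx4 ranked 3 of the 24 in both libraries, with Selenof between them at 176 and 123. The members Gpx1, Gpx4 and Txnrd1 together held 49.5% and 49.2% of the TPM of these genes. Gpx1 and Gpx4 alone held 47.1% and 46.6%, and Txnrd1 ranked 10 in replicate 1 and 8 in replicate 2. Selenot, at 48.9 and 40.1, and Selenok, at 27.1 and 18.9, encode proteins of the endoplasmic reticulum, and Selenoh was at 21.15 and 15.2. Selenop was at 20.6 and 11.05, Selenow at 12.7 and 16.4, Selenoi at 13.7 and 14.8, Selenos at 11.6 and 8.78, and Msrb1, a methionine sulfoxide reductase, at 9.25 and 11.6.

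NRF2, encoded by Nfe2l2, is the transcription factor known for switching on many antioxidant genes at a DNA element with the core TGACNNNGC. KEAP1 with the ubiquitin ligase scaffold CUL3 holds NRF2 protein low, small MAF proteins are its partners, and BACH1 competes for the same element. Of the 9 genes listed for this pathway 8 were detected. Nfe2l2 stood at 32.9 TPM in replicate 1 and 28.0 in replicate 2. Cul3 was at 65.5 and 54.0, Keap1 at 10.6 and 7.03, and Bach1 at 10.7 and 5.82. Mafk was at 10.7 and 10.6, Mafg at 3.25 and 2.51, and the related factor gene Nfe2l1 at 7.29 and 9.88. The NRF2 targets on this list, Hmox1 and Nqo1, lay below the median detected gene, which was at 8.89 and 7.22. Hmox1 had 38 counts in replicate 1 and 0 in replicate 2, and Nqo1 stood at 4.90 and 6.56. Only these 2 were listed as targets, and genes of the other lists were not sorted by whether NRF2 acts on them. Some of those lay above that median, such as Gclm at 29.3 and 31.8 and Gclc at 18.9 and 18.5. Others lay below it, such as Slc7a11 at 0.09 and 0.02. The level of NRF2 targets as a whole was therefore not tested. NRF2 protein was not measured.

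The TGACNNNGC core was searched on both strands in RefSeq promoters of GRCm38.p6, from 250 bases before to 50 after each gene's start. It occurred in 3 of the 15 promoters of the 10 members, 1 each of Prdx1, Sod1 and Txnrd1, and in 12.4% of all 32851 promoters. The matches, in capitals, lie on the strand opposite to the gene, so that the printed letters are the reverse complement of the core.
Prdx1: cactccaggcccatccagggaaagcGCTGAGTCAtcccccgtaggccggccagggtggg
Txnrd1: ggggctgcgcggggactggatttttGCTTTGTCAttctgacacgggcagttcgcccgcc
Sod1: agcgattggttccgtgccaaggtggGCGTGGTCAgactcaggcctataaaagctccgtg
They lie at chr4:116685441-116685499, chr10:82859089-82859147 and chr16:90220681-90220739, all on the plus strand. A match is a description of the letters and does not show binding. The GATA factor motif AGATAA or TGATAA, the motif of erythroid regulators, occurred in 2 overlapping promoters of 1 member, Gpx4, and in 18.6% of all promoters. In the bases shown here it reads TGATAA on the strand of the gene (chr10:80053395-80053450, plus strand).
Gpx4: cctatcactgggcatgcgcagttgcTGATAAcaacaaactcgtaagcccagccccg

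Genes of the NADPH oxidases, which produce superoxide, were low. Of the 11 on the list 4 were detected, and the list's median was 0.855 TPM. Cyba stood at 7.33 and 4.60 and Rac2 at 3.57 and 5.03. Cybb, the catalytic subunit of phagocytes, was at 0.98 and 1.37, and Nox1, Nox3, Nox4, Duox1 and Duox2 had 0 counts in both. In all 15 network genes had 0 counts in both libraries. The limit that a count of 0 allows, taken as 3 counts, came to between 0.00443 and 0.0516 TPM depending on their length, and covers counting error only. The authors' TPM intervals of some of these genes reached higher, up to 0.648 for Ggt1 and 0.605 for Me1 in replicate 1, so these genes may be above that limit.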

How the data were processed

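The deposited tables hold, per the file headers, an expected count (not normalized), a TPM, a posterior mean TPM and an FPKM for each gene, with interval bounds of the TPM, handled here as a score on the TPM scale because the authors state no level. Transcript tables hold the same values and, per the file headers, each transcript as a percent of its gene. The text files deposited with the tables name genome build mm10 and GENCODE M4. The sources used here do not name the program that made the estimates. Libraries held 39919884 and 48043010 expected counts, and 97225 and 119253 of these fell on the members.

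Gene IDs without version were matched to GENCODE M21 (same assembly), with 42462 of 43346 matched. Expected counts were rounded to whole numbers for TMM factors (edgeR 4.0.16) and size factors (DESeq2 1.42.0) in R 4.3.3, checked on simulated data. No test was run, since 1 group of 2 libraries allows none. Differences used log2(TPM + 1), and past 2-fold is by size alone. Other steps used Python 3.11.15, pandas 2.3.3, numpy 2.4.6, matplotlib 3.10.9 and BLAST 2.17.0. Named are all members, network genes averaging 10 TPM or more or else the highest of their list, and NRF2 regulators; other named genes were chosen after their values were seen. The members and lists were chosen with earlier results of these data known. Some items, 1 network gene and 1 sequence among them, are not reported here.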

Additional observations from a re-analysis of the deposited data

How the results depend on the processing

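The median level of the members was a TPM of 61.4, 60.8 with the posterior mean TPM, 267 with rescaled TPM and 155 as FPKM, the latter 2 being other scales, and 54.9 to 68.0 with either replicate left out. Their median percentile, 93.1 among detected protein-coding genes, was 97.3 among all protein-coding genes. The median difference between replicates relative to the median gene, -0.01, lay between -0.08 and 0.03 under the other pseudocounts, scalings and filters, except with no filter on low values, where it was -0.29 because the median of all genes is then 0. The sum over protein-coding transcripts, chosen after the data were seen, gave -0.01. No member passed 2-fold under any of these 9 alternatives. The median of the 13 lists, 6.64, was 29.1 with rescaled TPM, 9.22 over genes averaging 1 TPM or more, and 5.945 to 6.445 with either replicate left out. The count of leading transcripts shared by the libraries and of ratios with 1 direction stayed at 10 under each alternative, and no value changed sign in the 10 ratios. Of the values of single genes, pairs and lists under an alternative, 182 moved by less than the spread used as a limit and 72 by more. The 72 include levels given on another scale, as rescaled TPM or FPKM, and differences with no filter on low values. They are therefore not a count of results that depend on the processing. No paired analysis was possible because the series has 1 group. With 2 libraries, no spread between animals can be estimated.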
